A study of Sus scrofa with 9 samples.

Results

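The microRNAs (miRNAs) described here are the miR-200 family (miR-200a, miR-200b, miR-200c, miR-141 and miR-429), miR-205 and miR-203, which are best known from epithelial tissues. They were taken by name from the miRNA table of a small RNA sequencing study of pig gametes and early embryos, with every species prefix, arm and length variant kept. Of the 1313 names in that table, 16 belonged to them: 9 to the miR-200 family, 4 to miR-205 with miR-205b, and 3 to miR-203 with miR-203b. Each name is given as the table writes it, with a species prefix for the database entry it was matched to and, in many cases, a suffix for a sequence that differs from that entry. Names of 1 miRNA can come from overlapping reads, so they are not independent measurements.

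The 9 libraries fell into 3 groups of 3: oocytes arrested in the second meiotic metaphase (MII oocytes), pronuclear (PN) embryos and sperm. All came from pigs with no genetic change or drug treatment given in the labels. The oocytes were matured in vitro from ovaries of gilts older than 8 months collected at a slaughterhouse, and their cumulus cells had been stripped off. The PN embryos were taken 18 h after the start of in vitro fertilisation of such oocytes, and the sperm were fresh, purified sperm of boars aged 2 to 3 years. The study's methods name Long White pigs for the oocytes, Large White boars for the sequenced sperm and Landrace boars for the fertilisation. As named, the sequenced sperm and the fathers of the embryos differed in breed, and the part of breed was not tested. Oocytes and embryos were pooled for RNA, and nothing in the sources says that the 3 libraries of a group came from separate pools or boars, so p-values measure the spread between these libraries, which may be technical.

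In epithelial cells the miR-200 family and miR-205 bind the mRNAs of ZEB1 and ZEB2, transcription factors that repress E-cadherin, and by doing so they hold cells in the epithelial state. The genes of the family lie in a pair of clusters, one with miR-200b, miR-200a and miR-429 and the other with miR-200c and miR-141, and each cluster is transcribed as one precursor. Their seeds, the bases that pair with a target, fall into a pair of groups that differ at a single base: miR-200b, miR-200c and miR-429 share one, and miR-200a and miR-141 share the other. miR-203 is abundant in the skin, where it limits p63, the transcription factor of epidermal stem cells. In the pig assembly Sscrofa11.1, RefSeq places MIR205 on chromosome 9 at 133517078 to 133517146 and MIR429 on chromosome 6 at 63491921 to 63492001, each as a miRNA gene of its own.

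The libraries held 289183 to 381674 counts in MII oocytes, 422630 to 771001 in PN embryos and 1640492 to 2455102 in sperm. Levels are given as counts per 1000000 counts of the library (CPM), and 3 counts were worth 7.86 to 10.4 CPM in MII oocytes, 3.89 to 7.10 in PN embryos and 1.22 to 1.83 in sperm. The smallest member value above 0 was 5 counts, so a name listed at 0 may have had up to about 5 reads, and folds against such a group are lower bounds set at 5 counts in each library. All 11 names of a sperm miRNA list were called higher in sperm than in either other group. Of all 587 tested names, 42.2% were called higher in sperm than in MII oocytes and 38.8% higher than in PN embryos. Of the 11 names, 6 were at 0 in MII oocytes and 5 in PN embryos, so in those comparisons they could only come out higher in sperm. For oocytes and embryos the check rested on 1 name. Of the 5 miRNAs in an oocyte and early embryo list, 3 had no name. The list had 4 names, of which 3 were at 0 in MII oocytes and 1 was tested. That name, miR-371-5p, averaged 1183 CPM in MII oocytes and 1137 in PN embryos and was listed at 0 in all 3 sperm libraries. Apart from the endothelial list, lists of other cell types had names above 0 in every group. Summed stromal miRNAs, of which miR-214 had no name, reached 823 to 1038 CPM in MII oocytes, 492 to 623 in PN embryos and 93.3 to 113 in sperm. Summed white blood cell miRNAs, most of it miR-155 in MII oocytes and PN embryos, reached 916 to 1607, 1674 to 1822 and 107.9 to 125.9 CPM in that order, red blood cell miRNAs 166 to 254, 788 to 822 and 160 to 260 CPM, and ovarian follicle miRNAs 1414 to 1949, 1943 to 2111 and 4350 to 4481 CPM. The follicle names did not move together: of 8, 4 were called higher and 3 lower in sperm than in MII oocytes. miR-132 averaged 468 CPM in MII oocytes and 2931 in sperm, whereas miR-202-5p averaged 745 and 15.1. The 2 endothelial names, of miR-126, were at 0 in MII oocytes and reached at most 23.7 in PN embryos and 7.32 in sperm (CPM). The part of such cells in the levels below was not tested, and in RNA from pooled cells fewer cells of a type and less RNA per cell cannot be told apart.

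The members behaved as several patterns rather than one. miR-205 took almost as many counts as all other names together in MII oocytes and PN embryos and was a minor name in sperm, while miR-203, miR-200b and miR-200a were far higher in sperm. miR-141 was the family member that went the other way, and miR-200c differed least, with a direction that depended on how the libraries were scaled. Of the 16 names, 5 were listed in all 9 libraries, 8 in sperm alone and 1, the 3p arm of miR-205, in every MII and PN library but in no sperm library. The sperm libraries were the deepest, and 5 counts were worth 13.1 to 17.3 CPM in MII oocytes. Of the 8 names, cfa-miR-200b (94.4 CPM) and ssc-miR-429 (40.4) lay well above that in sperm, and the others averaged 0.679 to 20.1 CPM. The part of depth in this count was not tested, and the share of such names over all names was not counted.

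**Figure D1:**
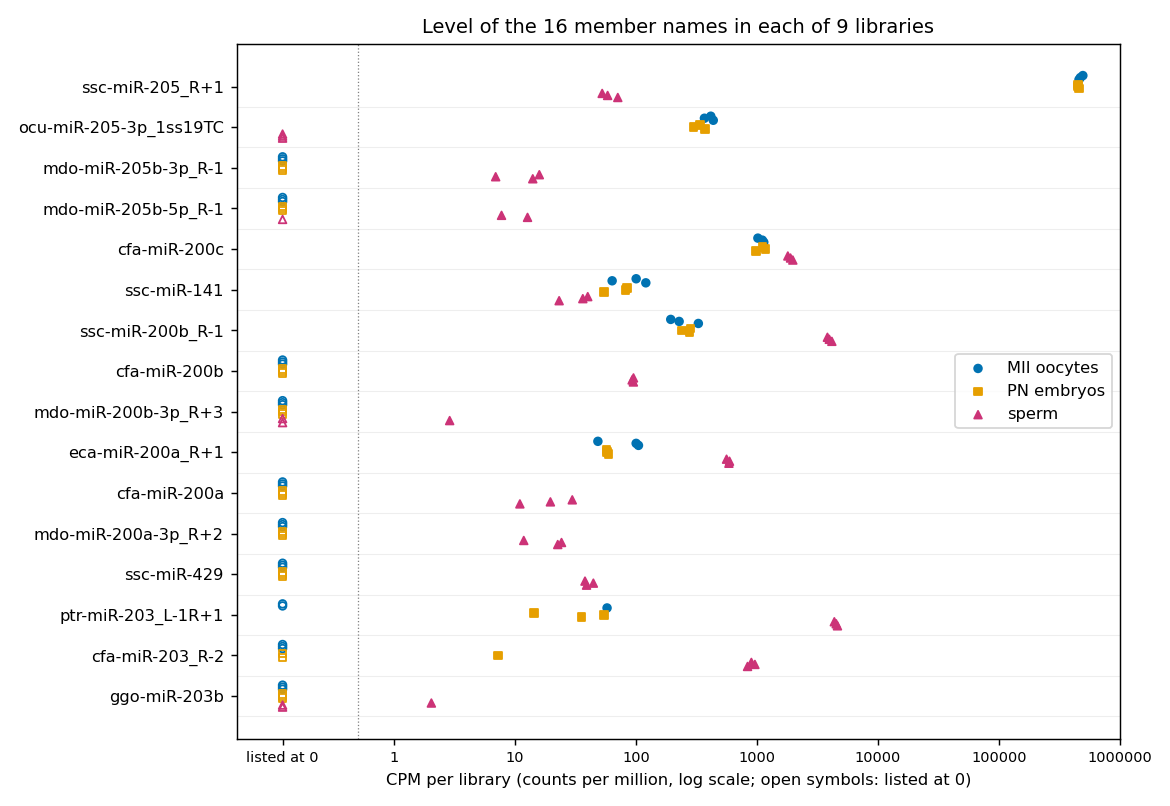
Level of each of the 16 member names in each library, in CPM on a log scale, with circles for MII oocytes, squares for PN embryos, triangles for sperm and open symbols at the left for libraries listed at 0. The miR-205_R+1 libraries of MII oocytes and PN embryos lie between 451440 and 492847 CPM and those of sperm between 52.5 and 70.7 CPM, whereas the sperm libraries lie to the right for miR-200b_R-1, miR-200a_R+1 and both main miR-203 names.

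miR-205 was the most abundant name of the table in MII oocytes and PN embryos and ranked 232 in sperm. Its leading name, ssc-miR-205_R+1, stood at 457971, 470040 and 492847 CPM in the 3 MII libraries, at 457932, 451440 and 451824 CPM in the 3 PN libraries, and at 70.7, 58.3 and 52.5 CPM in the 3 sperm libraries, where it had 116, 101 and 129 counts. The oocyte and embryo libraries lay within a narrow band and the sperm libraries did not come near it. By edgeR the log2 fold change of sperm against MII oocytes was −12.89 ± 0.10 (SE, q = 1.79e-14) and that of sperm against PN embryos −12.76 ± 0.10 (q = 1.91e-14), from mean CPM that differed 7828-fold and 7499-fold. With library totals that leave out miR-205 and no further scaling, the values were −13.88 and −13.76.

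All miR-205 names together held 47.4% ± 1.77 (SD, n = 3) of the counts in MII oocytes, 45.4% ± 0.368 in PN embryos and 0.00796% ± 0.000453 in sperm. 95% Wilson intervals of the miR-205 share reached at most 0.182 percentage points on either side in MII oocytes and PN embryos and 0.00141 points in sperm, where they were wider than the SD between libraries. The lowest MII library, at 45.8%, was just above the highest PN library, also at 45.8%. A two-sided exact permutation test of the PN and MII shares gave p = 0.1, the smallest that 3 libraries against 3 allow (0.123 after adjustment over 27 comparisons of shares and ratios). The size of the share depends on how the table is summed: 105 names stand on more than 1 line with the same counts, none of them a member, and counting each once raised the miR-205 share to 51.6% ± 1.65 in MII oocytes and 49.7% ± 0.383 in PN embryos.

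**Figure D2:**
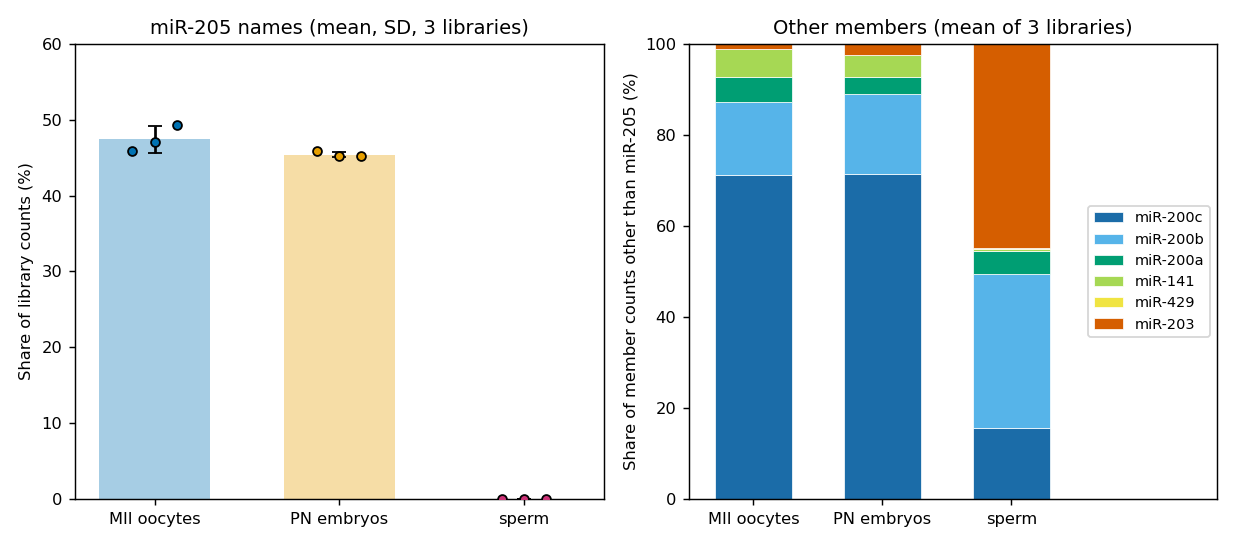
Left, percent of each library's counts held by all miR-205 names, with bars for group means, error bars for SD (n = 3) and 1 point per library; right, the mean percent that each of the other miRNAs takes of the member counts other than miR-205. miR-205 stands at 47.4% in MII oocytes and 45.4% in PN embryos and close to 0 in sperm, and the largest band on the right is miR-200c (71.3% and 71.4%) in those groups and miR-203 (44.8%) in sperm.

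The 3p arm of miR-205, the strand of the hairpin that is usually discarded, followed the leading name at a much lower level. ocu-miR-205-3p_1ss19TC stood at 435, 368 and 415 CPM in MII oocytes, 374, 298 and 340 in PN embryos and 0 in each sperm library. The MII and PN libraries overlapped, and both groups lay far above sperm. Its level was at least 153-fold higher in MII oocytes (edgeR q = 6.86e-09) and at least 127-fold higher in PN embryos (edgeR q = 6.72e-09) than in sperm. For 1000 counts of the leading name there were 0.858 ± 0.0849 counts of the 3p arm in MII oocytes and 0.743 ± 0.0789 in PN embryos (n = 3 each, exact permutation p = 0.2). At such a ratio the 101 to 129 counts of miR-205 in a sperm library would carry less than 1 count of the 3p arm, so its presence in sperm at that ratio was not detectable at this depth.

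The remaining miR-205 names were of miR-205b, a related miRNA matched to an opossum entry, and they were listed in sperm alone. mdo-miR-205b-3p_R-1 stood at 14.0, 6.92 and 15.9 CPM in sperm and mdo-miR-205b-5p_R-1 at 0, 12.7 and 7.74 CPM. In sperm the leading name therefore held 75.8% ± 7.28 of all miR-205 counts, against 99.9% in MII oocytes and PN embryos. Neither name passed the filter, and 5 counts in an MII library are worth 13.1 to 17.3 CPM, so a difference from MII oocytes was not detectable at this depth.

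miR-200c and miR-141, which share a precursor, went apart in sperm. cfa-miR-200c stood at 1137, 1106 and 1017 CPM in MII oocytes, 982, 1178 and 1112 in PN embryos and 1976, 1891 and 1798 in sperm. ssc-miR-141 stood at 121, 63.5 and 100 CPM in MII oocytes, 54.4, 82.0 and 84.3 in PN embryos and 23.2, 36.3 and 39.9 in sperm. All 3 sperm libraries were above the other groups for miR-200c and below them for miR-141, while MII oocytes and PN embryos overlapped for both.

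miR-141 fell in sperm, by edgeR, with a log2 fold change of −1.45 ± 0.31 against MII oocytes (q = 0.00132) and −1.03 ± 0.29 against PN embryos (q = 0.00676). The second call stands close to the fold threshold of 1 on the log2 scale and was lost in 13 of 22 alternative settings. miR-200c was 0.85 ± 0.08 higher than in MII oocytes (edgeR q = 1.87e-06) and 0.92 ± 0.07 higher than in PN embryos (edgeR q = 6.27e-07), both below that fold threshold, and it reached the threshold in 9 and 14 of 22 alternatives. miR-205 fills much of the oocyte and embryo totals, and leaving it out of them gave opposite directions with and without TMM, the scaling of edgeR that centres most names. With TMM refitted without miR-205, miR-200c was 1.05 higher in sperm than in MII oocytes (edgeR q = 2.36e-07) and 1.12 higher than in PN embryos (q = 8.73e-08). In CPM of the counts other than miR-205, miR-200c stood at 2063 ± 51.0 in MII oocytes, 1996 ± 170 in PN embryos and 1889 ± 89.2 in sperm, and with those totals and no further scaling its log2 fold change was −0.13 (edgeR q = 0.128) and −0.09 (q = 0.251). Under that scaling the median log2 fold change of all tested names was −0.82 and −1.52, beside 0 and −0.52 with TMM over all names. The log2 fold change of miR-141 there was −2.44 (edgeR q = 3.68e-05) and −2.03 (q = 8.62e-05).

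The ratio of miR-200c to miR-141 within a library does not depend on the library total. It was 9.44, 17.4 and 10.1 in MII oocytes, 18.04, 14.4 and 13.2 in PN embryos and 85.3, 52.0 and 45.0 in sperm, with each sperm library above the other 6. The exact permutation p of sperm against either other group was 0.1, the smallest possible, and that of PN embryos against MII oocytes was 0.4. The 4 ratios used here were chosen after the values had been seen.

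The other cluster, miR-200b, miR-200a and miR-429, was higher in sperm, in each of its 3 miRNAs. ssc-miR-200b_R-1 stood at 328, 227 and 193.6 CPM in MII oocytes, 277, 239 and 281 in PN embryos and 4152, 3956 and 3818 in sperm. Sperm lay far above the other groups, whose libraries overlapped with each other. Mean CPM were 15.9-fold those of MII oocytes (edgeR log2 fold change 4.03 ± 0.13, q = 6.43e-10) and 15.0-fold those of PN embryos (4.04 ± 0.12, q = 3.02e-10). With totals without miR-205 and no TMM the log2 fold changes were 3.04 and 3.03.

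eca-miR-200a_R+1, which has the seed of miR-141 but the cluster of miR-200b, rose with its cluster. It stood at 105, 100 and 48.4 CPM in MII oocytes, 59.2, 57.5 and 57.1 in PN embryos and 586, 592 and 560 in sperm. Sperm was again clear of both other groups, and the third MII library lay below all PN libraries while the other 2 lay above them. The rise in sperm was 6.86-fold over MII oocytes (edgeR log2 fold change 2.81 ± 0.18, q = 1.23e-07) and 10.0-fold over PN embryos (3.45 ± 0.17, q = 1.41e-08). With totals without miR-205 and no TMM the values were 1.83 and 2.45 on the log2 scale.

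ssc-miR-429, the third miRNA of the cluster, was listed in sperm alone, at 39.0, 44.4 and 37.9 CPM. Its level there was at least 2.58-fold that of MII oocytes and at least 4.76-fold that of PN embryos. It entered the test through sperm alone, so it had to differ. The edgeR q values (3.00e-04 and 9.18e-05) belong to the fit and not to these bounds. Further length variants of the cluster were also listed in sperm alone. cfa-miR-200b reached 94.4 ± 1.35 CPM, at least 6.02-fold MII oocytes and at least 11.11-fold PN embryos. It too entered the test through sperm alone and had to differ (edgeR q of the fits 2.84e-05 and 8.86e-06). cfa-miR-200a reached 20.1 ± 9.39 CPM and mdo-miR-200a-3p_R+2 reached 19.5 ± 6.74 CPM, and neither passed the filter. mdo-miR-200b-3p_R+3 had 5 counts in 1 sperm library and shares its line of counts with another name. These variants were a small part of their miRNAs, since in sperm ssc-miR-200b_R-1 held 97.7% of the miR-200b counts and eca-miR-200a_R+1 held 93.6% of the miR-200a counts.

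Within the libraries, miR-200b stood at 3.13 ± 0.867 times miR-200a in MII oocytes, 4.59 ± 0.399 times in PN embryos and 6.58 ± 0.253 times in sperm. The 3 groups did not overlap in this ratio (exact permutation p = 0.1 for each pair, the smallest possible). Across the clusters, miR-200b was at 0.228 ± 0.0525 of miR-200c in MII oocytes and 0.246 ± 0.0401 in PN embryos (exact permutation p = 0.8), and at 2.16 ± 0.018 times miR-200c in sperm (exact permutation p = 0.1 against each). Together, miR-200b, miR-200c and miR-429, which share a seed, held most of the miR-200 family counts in each group: 88.3% ± 1.38 in MII oocytes, 91.2% ± 0.486 in PN embryos and 90.2% ± 0.443 in sperm (exact permutation p = 0.1 for each pair).

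**Figure D3:**
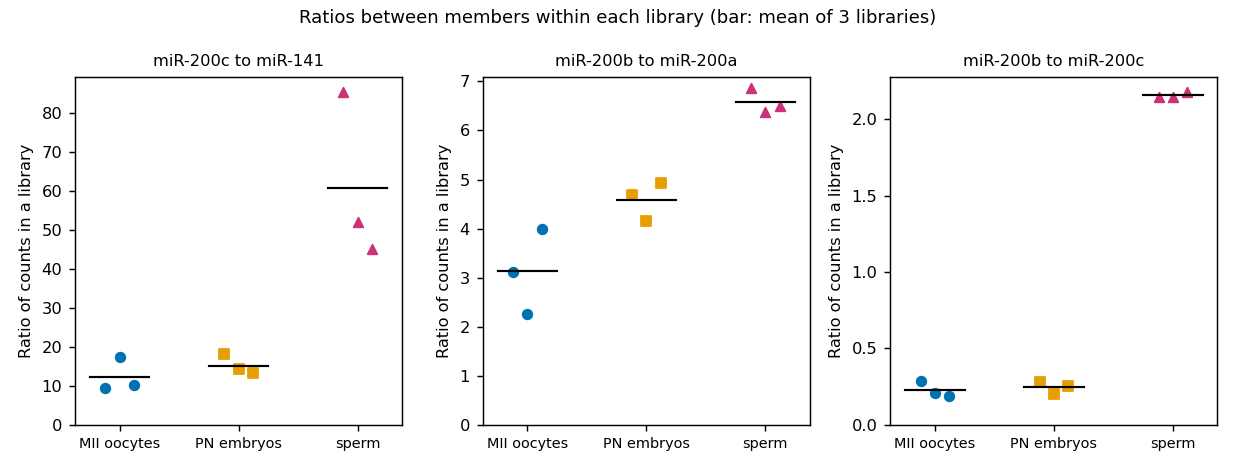
Ratios of members within each library, 1 point per library with the group mean. Sperm libraries lie at 45.0 to 85.3 for miR-200c over miR-141 and near 2.16 for miR-200b over miR-200c, above all MII and PN libraries in both ratios.

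miR-203 was the most abundant member in sperm and close to the detection limit in MII oocytes. ptr-miR-203_L-1R+1 had 22 counts (57.6 CPM) in 1 MII library and was listed at 0 in the other 2. It stood at 35.5, 54.7 and 14.3 CPM in the PN libraries and at 4622, 4515 and 4355 CPM in sperm. MII and PN libraries overlapped and sperm lay far above both. The sperm mean was 234-fold that of MII oocytes (edgeR log2 fold change 7.69 ± 0.43, q = 3.93e-08) and 129-fold that of PN embryos (7.17 ± 0.36, q = 1.56e-08). With totals without miR-205 and no TMM the log2 fold changes were 6.71 and 6.17. Against the 2 MII libraries at 0 the sperm mean was at least 265-fold higher.

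A second miR-203 name, cfa-miR-203_R-2, was at 0 in MII oocytes, had 5 counts in 1 PN library and stood at 835, 961 and 898 CPM in sperm. It was at least 57.2-fold higher in sperm than in MII oocytes and at least 106-fold higher than in PN embryos. This name entered the test through sperm alone, so it had to differ (edgeR q of the fit against MII oocytes 2.52e-07). The names held 83.4% and 16.7% of the miR-203 counts of sperm. ggo-miR-203b had 5 counts in 1 sperm library and was listed at 0 elsewhere, and it too shares its line of counts with another name.

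Summed over the names of each miRNA, the order of CPM in sperm was miR-203 (5395 ± 123), miR-200b (4071 ± 168), miR-200c (1888 ± 89.2), miR-200a (619 ± 17.4), miR-205 (60.5 ± 9.29), miR-429 (40.4 ± 3.50) and miR-141 (33.1 ± 8.82). The libraries of miR-429 and miR-141 overlapped, and the other neighbours in this order did not. In MII oocytes and PN embryos the order was miR-205, miR-200c, miR-200b and then miR-141 and miR-200a, whose libraries overlapped. In these orders miR-205 is its leading name alone. Its 3p arm, at 406 CPM in MII oocytes and 337 in PN embryos, and miR-205b were left out. Of the member counts other than miR-205, miR-200c held 71.3% in MII oocytes, 71.4% in PN embryos and 15.7% in sperm, and miR-203 held 1.10%, 2.42% and 44.8%. These orders and shares describe counts. They need not be the orders of the amounts of the miRNAs, because ligation and amplification favour some sequences.

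The members other than miR-205 held 0.154% ± 0.0197 of the counts in MII oocytes, 0.153% ± 0.0107 in PN embryos and 1.21% ± 0.0366 in sperm. MII oocytes and PN embryos differed by −0.000974 percentage points (exact permutation p = 1), and sperm exceeded MII oocytes by 1.05 points (exact permutation p = 0.1).

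Of the 16 names, 10 had enough counts to be tested. cfa-miR-200b, ssc-miR-429 and cfa-miR-203_R-2 entered through sperm alone, and the 3p arm of miR-205 through MII oocytes and PN embryos, so these had to differ. In sperm against MII oocytes, edgeR called 9 of the 10 (background 83.0% of 587 names), 6 higher in sperm (background 42.2%) and 3 lower (background 40.7%). In sperm against PN embryos it also called 9 (background 86.2%), 6 higher (38.8%) and 3 lower (47.4%). All 10 were without overlap between groups in each of these comparisons, where 81.6% and 92.2% of all tested names were. The shares of members called thus stood near those of the whole table. Their median log2 fold change was 3.42 beside 0 over all tested names in the first comparison and 3.75 beside −0.52 in the second. These medians include the 4 names that had to differ and more than 1 name of some miRNAs, so part of their size comes from the filter. They were 1.98 and 2.85 with those 4 names, at or under 5 counts in a group, set to their bounds. Both comparisons use the same sperm libraries.

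**Figure D4:**
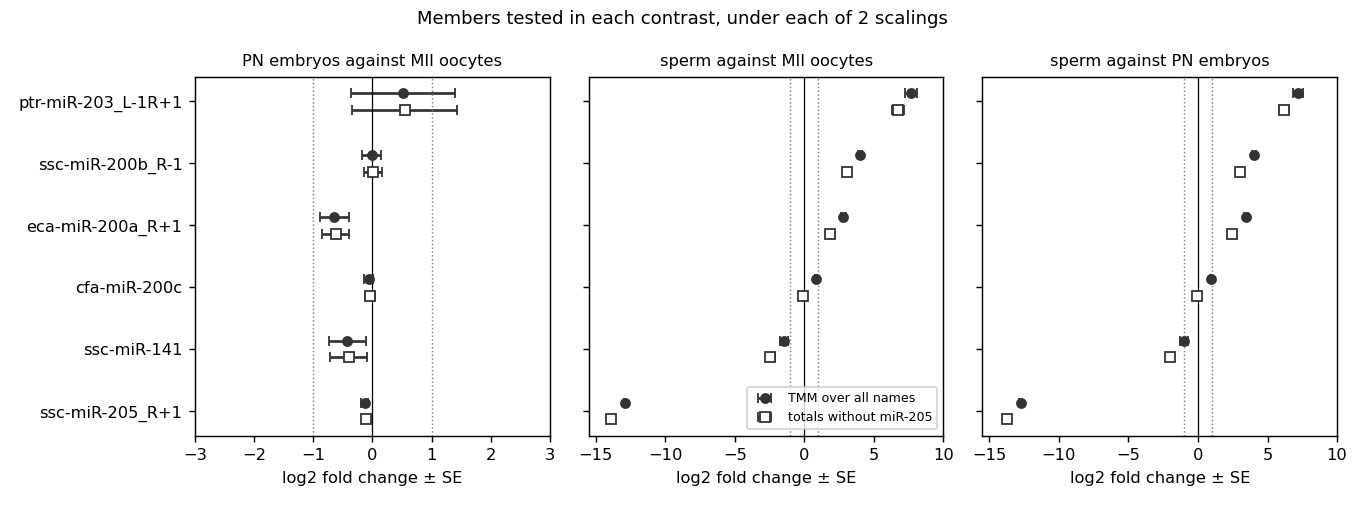
Log2 fold change ± SE of the 6 leading names in each contrast, as filled circles with TMM scaling over all names and as open squares with library totals without miR-205 and no further scaling. In both sperm contrasts miR-200c lies above 0 with the first scaling and just below 0 with the second, while miR-203, miR-200b and miR-200a stay above 0 and miR-141 and miR-205 below.

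Between PN embryos and MII oocytes, the comparison that covers fertilisation, edgeR called 0 of the 10 members (background 12.9% of 587 names), and DESeq2 called 0 as well. At an unadjusted p under 0.05 there were 3 of the 10, beside 209 of all names tested. These were ssc-miR-205_R+1 at −0.13 ± 0.06 (edgeR q = 0.123), its 3p arm at −0.35 ± 0.14 (q = 0.119) and eca-miR-200a_R+1 at −0.64 ± 0.24 (q = 0.0805). Without the third MII library miR-200a differed by −0.90 (edgeR q = 0.00609), and without the first by −0.29 (q = 0.583). The remaining leading names were at −0.06 ± 0.08 (miR-200c), −0.01 ± 0.16 (miR-200b) and −0.42 ± 0.31 (miR-141), with edgeR q of 0.684, 1 and 0.393. ptr-miR-203_L-1R+1 was at 0.52 ± 0.88 (edgeR q = 0.785), a value set by the 22 counts of the first MII library: without it MII oocytes were at 0 throughout and miR-203 was called higher in PN embryos (edgeR q = 0.0260). Groups did not overlap for 1 of the 10, where 39.5% of all names did not.

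Summing all names of an arm before the test gave 8 arms tested of 11. In sperm against MII oocytes all 8 were called (background 82.7% of 485 arms), miR-200c among them, and in sperm against PN embryos 7 were called (background 82.9%), with miR-141 at −0.86 (edgeR q = 0.0225) the exception and miR-200c at 1.07 called. Between PN embryos and MII oocytes 0 of 8 were called (background 7.84%). miR-200c and miR-141 each stand under a single name, so summing did not change their counts. Their changed calls came with the refit of scaling and spread over the summed names. With library totals alone, or with totals without miR-205, 7 of 8 arms were called in sperm against MII oocytes.

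The names whose levels followed those of a member most closely were sought by Pearson's r of log2(CPM + 1) over the 9 libraries among 492 names, as a description, since all 9 share 3 group means and their depths. Nearest to miR-205 were a predicted pig sequence, PC-3p-3013_1576 (r = 0.99972), ssc-miR-371-5p (0.9997) and oan-miR-1386 (0.99964). Their levels were far below that of miR-205: ssc-miR-371-5p averaged 1183 CPM in MII oocytes, 1137 in PN embryos and 0 in sperm. Nearest to ssc-miR-200b_R-1 were ssc-let-7g (0.9973), ssc-miR-28-5p_R-1 (0.99623) and ssc-let-7i-5p_R+3 (0.99462), all with higher levels in sperm.

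Other miRNAs known from epithelia did not move as one with the members. A list of 8 of them had 11 names, of which 9 were tested. edgeR called 0 between PN embryos and MII oocytes (background 12.9% of 587 names). It called 2 higher and 2 lower in sperm than in MII oocytes (background 42.2% and 40.7%). Against PN embryos it called 2 higher and 3 lower in sperm (background 38.8% and 47.4%). In both sperm comparisons the part of the list called was below that of all tested names. Medians in the 3 comparisons were 0.04, −0.48 and −0.35 on the log2 scale beside 0.08, 0 and −0.52 over all names. Summed, they stood at 18590 ± 1404 CPM in MII oocytes, 17830 ± 98.5 in PN embryos and 13320 ± 624 in sperm.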

How the data were processed

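Small RNA was sequenced from 3 libraries each of pig MII oocytes, PN embryos and sperm, after adapter ligation, reverse transcription and PCR. The authors matched the reads to known miRNAs and to the genome (Sscrofa11.1 in the submitters' processing notes) and deposited a table of raw counts per miRNA name. These are estimated counts, since 19.8% of the deposited values above 0 were not whole, whereas all 81 member values above 0 were.

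Lines of the same name were summed, which left 1313 names of 1420 lines, and counts were rounded for the tests. edgeR 4.0.16 (R 4.3.3) fitted all 9 libraries with TMM scaling and its quasi-likelihood test after filterByExpr, which kept 587 names with 99.8% of the counts. Names were called at a Benjamini-Hochberg q under 0.05 over all tested names and a log2 fold change of at least 1 in size. Shares and ratios were compared by two-sided exact permutation tests (20 splits, smallest p 0.1). Wilson intervals and limits cover counting error only, since PCR reads without molecular identifiers are not independent molecules. Names with a mean of 10 CPM or more in a group were to be described, as were the 3 names most like miR-205 and miR-200b. Alternatives were DESeq2 1.42.0 and its size factors, library totals, totals without miR-205 with and without TMM, other filters, equal depth, single counting of repeated names or lines, the 2 groups alone, the replicate number as a block, and leaving out each library. The procedure was tested on simulated data in which the groups shared the same mean for each name apart from set changes. That test did not cover names absent from a group or the uneven share of miR-205. The members, lists and tests were chosen with earlier results of these data known. Gene positions are from RefSeq.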

Additional observations from a re-analysis of the deposited data

How the results depend on the processing

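Of 30 named fold changes, 23 kept their direction and side of the thresholds under every alternative run, and over 654 settings 599 were unchanged in this sense, 13 lost a call, 26 gained one and 16 turned direction. Most turns concerned names near 0 between PN embryos and MII oocytes. There, miR-200b_R-1 turned to 0.0599 with library totals alone, 0.0176 with the replicate block, 0.21 with lines of identical counts kept once, 0.0252 at equal depth, 0.0114 with totals without miR-205 and no TMM, 0.40 without MII replicate 1, 0.08 without PN replicate 2 and 0.00028 without sperm replicate 3. miR-200c turned to 0.0102 with library totals alone, 0.15 with identical lines kept once and 0.11 without MII replicate 1, miR-205_R+1 to 0.0728 with identical lines kept once, and miR-203_L-1R+1 to −0.0139 without MII replicate 2 and −0.0792 without PN replicate 2. With totals without miR-205 and no TMM, an alternative chosen after seeing the data, miR-200c turned to −0.13 and −0.0888 in sperm against MII oocytes and PN embryos, whereas totals and TMM both without miR-205 gave 1.05 and 1.12, past the thresholds. Between PN embryos and MII oocytes, leaving out 1 library at a time gave −0.12 to 0.11 for miR-200c. It gave −0.0792 to 8.02 for miR-203 and −0.16 to 0.40 for miR-200b. For these values the cause was not tested.

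Members called between PN embryos and MII oocytes ranged from 0 to 1 over the fits without 1 library, 1 being miR-203 without MII replicate 1. Same-numbered libraries did not deviate together (mean correlations of −0.036, −0.11 and 0.02 for the 3 contrasts), so no pairing was seen. With 3 libraries a group, deviations from the group mean cannot exclude a shared pool or batch. With the replicate block 0, 9 and 9 members were called, as without it. Counting repeated names once moved the share differences of sperm against MII oocytes and PN embryos to −50.4 and −48.5 percentage points for all members, −51.5 and −49.7 for miR-205, and 1.17 and 1.17 for the rest. Identical lines kept once gave −44.8 for all members and −45.9 for miR-205 against PN embryos, and totals without miR-205 gave 0.914 and 0.926 for the rest. With 3 libraries a group no exact permutation p could pass 0.05, and 5 counts in MII libraries hide names under about 17.3 CPM.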
